A study of Mus musculus with 8 samples.

Results

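The m6A peaks of 10 core genes of TGF-β and SMAD signalling were described in bone marrow-derived macrophages (BMDMs) of WT and *Mettl3*-null (KO) mice. The genes were chosen by name and role, not by a measured value, but with earlier results of these data known. They were the receptors *Tgfbr1* and *Tgfbr2*, the SMADs *Smad2*, *Smad3*, *Smad4* and *Smad7*, the ubiquitin ligases *Smurf1* and *Smurf2*, and the corepressors *Ski* and *Skil*. All 10 had a listed peak in at least 1 mouse, among 6971 protein-coding genes with a peak. WT mice carried *Mettl3* fl/fl with Lyz2 +/+, and KO mice were their *Mettl3* fl/fl littermates with Lyz2 cre/+, so both genotypes shared the floxed allele. Lyz2-Cre is active in the myeloid lineage, granulocytes and some dendritic cells included, and deletes incompletely. Mice were 8 weeks old and of the C57BL/6 strain, and bone marrow was grown for 7 days with 40 ng/mL M-CSF, the growth factor that drives macrophage differentiation. From each of 2 mice per genotype, an m6A immunoprecipitate and an input library were sequenced (8 libraries), and 1 peak list per mouse was analysed, called WT-1 or WT-2 for WT mice and KO-1 or KO-2 for KO mice. Mice were not pooled, and the labels do not say whether equal numbers mark a shared litter or batch.

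TGF-β binds TGFBR2, which activates TGFBR1. TGFBR1 phosphorylates SMAD2 and SMAD3, which join SMAD4 and enter the nucleus to regulate genes. SMAD7 blocks the receptor and brings in SMURF1 or SMURF2 to mark it for degradation, while SKI and SKIL (SnoN) hold SMAD complexes in a repressed state. In macrophages the pathway is known for restraining inflammatory activation. N6-methyladenosine (m6A) is a methyl mark that METTL3, with METTL14, writes on mRNA within the DRACH motif (D is A, G or T, R is A or G, H is A, C or T), most often in long internal exons and around stop codons. MeRIP-seq enriches fragmented RNA with an m6A antibody, and a peak is a stretch where the precipitate exceeds the input.

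The lists held between 6159 (WT-1) and 6684 (KO-2) peaks, each with a score that the peak caller assigned and whose formula is not given in the sources used here. Scores are therefore given with their percentile within the list, the share of its peaks that scored the same or less, and are not compared as levels of methylation. A plateau score of 3100.00 was shared by many peaks, and it or more was reached by 10.3% and 13.5% of the WT peaks and by 16.2% and 19.5% of the KO peaks. Where values follow each other by genotype, replicate 1 comes first. *Mettl3* itself had no peak in any list, so the peak lists do not check the genotype. No read counts come with the peaks, and the depth is unknown. A gene without a listed peak may have had little m6A, little RNA or few reads, and these cannot be told apart, nor can fewer cells of a type and less RNA per cell in bulk samples.

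A few sequences under recurrent peaks are shown to place GGAC within them. They were read from the RefSeq genome GRCm38.p6 on the strand of the mRNA, 5′ to 3′, with GGAC, the commonest core of the m6A motif, in capitals. The first is the part of the *Tgfbr2* peak shared by WT-2, KO-1 and KO-2 with the most GGAC (chr9:116109621-116109920, minus strand, exon 5, coding bases 913 to 1212). The second is the matching part of the *Ski* peak shared by all 4 lists (chr4:155221606-155221905, minus strand, exon 1, coding bases 616 to 915). The others are stretches of 30 bases around a GGAC in peaks of *Skil* found in all 4 lists (chr3:31097615-31097644 in the coding part of exon 2 and chr3:31118594-31118623 at the stop codon, both plus strand) and in the *Smad3* 3′-UTR peak found in both KO lists (chr9:63648763-63648792, minus strand).
Tgfbr2 exon 5: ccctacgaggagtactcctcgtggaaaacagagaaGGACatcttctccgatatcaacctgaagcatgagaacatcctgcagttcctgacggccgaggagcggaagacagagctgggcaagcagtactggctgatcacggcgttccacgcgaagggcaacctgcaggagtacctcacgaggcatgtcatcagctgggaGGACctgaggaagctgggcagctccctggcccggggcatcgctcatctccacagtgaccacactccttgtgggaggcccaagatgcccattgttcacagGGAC
Ski exon 1: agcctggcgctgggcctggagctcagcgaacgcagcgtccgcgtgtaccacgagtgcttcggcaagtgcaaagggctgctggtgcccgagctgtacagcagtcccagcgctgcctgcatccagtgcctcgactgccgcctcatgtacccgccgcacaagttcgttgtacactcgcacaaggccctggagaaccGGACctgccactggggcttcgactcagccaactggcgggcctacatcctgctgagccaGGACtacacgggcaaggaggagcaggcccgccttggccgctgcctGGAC
Skil exon 2: gagctctttgggtGGACcagcagcattttc
Skil stop codon: ccaagccctccaaGGACtaagagctgaaga
Smad3 3′-UTR: tgagatggtctgtGGACtgctgcttcagac
The GGAC of the *Skil* stop codon peak ends directly before the stop codon, and it was the 1 GGAC in a peak region of 979 bases.

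The first question was whether the peaks of these genes differed between WT and KO BMDMs. Of the 10 genes, 5 had a peak in all 4 lists, namely *Smad2*, *Smad3*, *Smad4*, *Ski* and *Skil*, beside 30.5% of all genes with a peak. None was peaked in both WT lists alone (3.97% of all genes with a peak), and 1, *Smurf2*, was peaked in both KO lists alone (4.89% of all genes with a peak). Peaks on the 10 genes numbered 9 and 16 in the WT lists and 12 in each KO list. WT BMDMs averaged 12.5 ± 4.95 (SD, n = 2) and KO BMDMs 12 ± 0 (SD, n = 2) peaks, and both KO lists lay between the WT lists. *Tgfbr1*, *Smad4*, *Smad7* and *Skil* had a higher mean number of peaks in WT, *Tgfbr2*, *Smad3* and *Smurf2* in KO, and the other 3 an equal one. In 2 lists against 2, a two-sided exact permutation test cannot go below p = 0.333, and for the single genes it gave values from 0.333 to 1. Of all 21866 protein-coding genes, 31.9% had a peak in at least 1 list. The mRNAs of the 10 genes were longer than those of the genes with a peak, with medians of 5471 nt and 3498 nt. Their median number of peak regions per kb of mRNA was 0.408, against 0.431 for all genes with a peak.

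**Figure D1:**
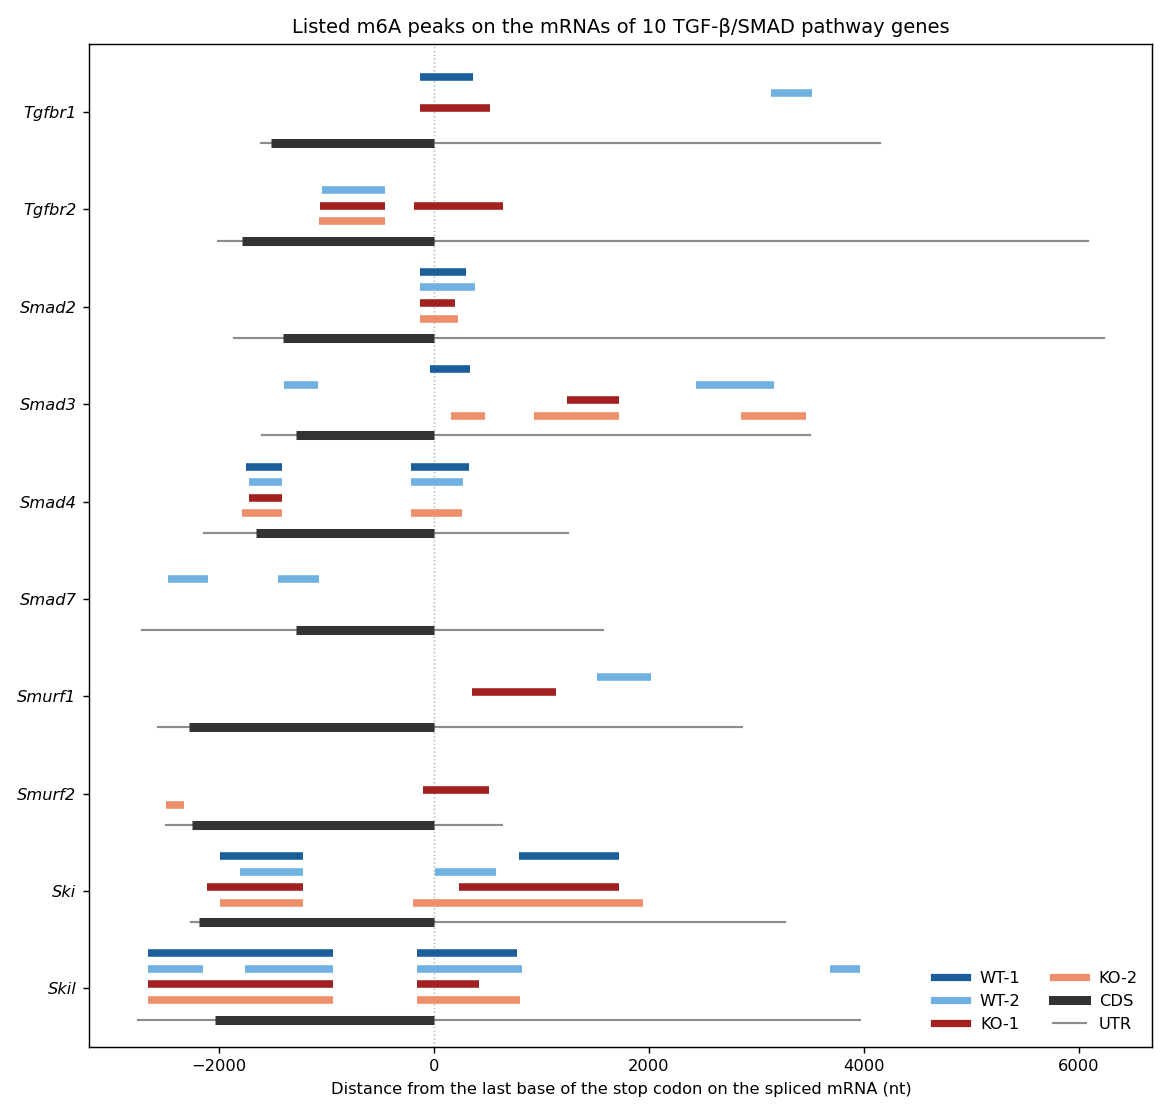
Listed peaks on the spliced mRNA of each gene (x axis, distance from the last base of the stop codon in nt), 1 row of bars per mouse list, with the coding sequence as a thick and the UTRs as a thin line. Bars of all 4 lists lie at the same places on *Smad2*, on the 5′ side of *Smad4* and *Ski*, and in exon 2 and at the stop codon of *Skil*. By contrast, *Smad7* has bars of WT-2 alone, and the bars of *Smurf1* and *Smurf2* do not overlap.

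Among the receptors, *Tgfbr1*, which carries the kinase that acts on SMADs, had 1 peak in each WT mouse, 1 in KO-1 and none in KO-2. The WT-1 and KO-1 peaks both began at -125 nt from the last base of the stop codon, at the edge of the last exon (region chr4:47410652-47411303), and the 492 bp they shared held no GGAC. The WT-2 peak lay elsewhere, with its midpoint 3330 nt into the 3′-UTR. All 3 were weak, that is low-scoring within their lists, at percentiles 24.7 and 19.6 in WT and 1.55 in KO-1. *Tgfbr2*, the receptor that binds the ligand, was unlike it: a peak in exon 5 was listed in WT-2, KO-1 and KO-2 with scores of 955.00, 324.87 and 1090.50 (percentiles 59.4, 32.5 and 58.5). These 3 peaks ended at the same exon edge and shared 590 bp of coding sequence with 5 GGAC, 3 of which are in the sequence above. WT-1 had no peak on *Tgfbr2*, and KO-1 alone had another one, of 827 bp over the stop codon. The peak in exon 5 was thus present in 1 of 2 WT and both KO lists, so the genotypes overlapped.

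The receptor-activated SMADs, *Smad2* and *Smad3*, are close paralogs, and their peaks were placed differently. *Smad2* had 1 peak in every list, always over the stop codon and always starting at the edge of exon 11, the last exon (region chr18:76304607-76305117). Its scores were 360.07 and 534.28 in WT, and 290.52 and 394.84 in KO. As percentiles these were 38.7 and 41.7 against 29.2 and 31.5, so both WT lists lay above both KO lists, and the peaks were also wider in WT, at 429 and 511 bp against 321 and 354 bp. Of the 2155 regions found in all 4 lists, 9.51% had both WT percentiles above both KO percentiles (28.4% with tied scores ranked from the bottom, which left *Smad2* as it was) and 9.28% covered more bases in both WT lists. *Smad3* also had a peak in every list, but no base of it was covered in all 4. Its peaks, 1 and 2 in WT and 1 and 3 in KO, formed 4 regions. WT-1 and KO-2 shared 181 bp near the stop codon, without a GGAC, and WT-2 and KO-2 shared 307 bp near the end of the 3′-UTR. A region in the middle of the 3′-UTR (chr9:63648535-63649332) was listed in KO-1 and KO-2 and in neither WT list, with scores of 208.09 and 632.26 (percentiles 20.7 and 43.5). The start codon region of *Smad3* was listed in WT-2 alone (score 230.13, percentile 18.9).

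*Smad4*, the partner that SMAD2 and SMAD3 share, held its highest peak over the start codon in exon 2 (region chr18:73677663-73678106). The WT scores there were 2670.85 and 1259.31, and both KO scores were 3100.00. The percentiles were 88 and 67.1 in WT and 99.4 and 99.3 in KO, so the KO lists lay above the WT lists, as they did in 23.8% of the regions found in all 4 lists. This order rests on the ties at the plateau, where a percentile counts the tied peaks of its list. With ties ranked from the bottom, KO-1 and KO-2 fell at 83.8 and 80.6, below WT-1, and the genotypes overlapped. A second *Smad4* region over the stop codon was absent from KO-1 alone. It scored 267.19 and 51.52 in WT and 199.13 in KO-2, and the WT-2 peak was at percentile 0.0958, among the lowest of its list. Of the *Smad4* regions, the one at the start codon was thus listed in every mouse and the one at the stop codon was not.

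*Smad7*, the inhibitory SMAD that the pathway itself induces, had peaks in WT-2 alone. One lay in the 5′-UTR part of exon 1 (chr18:75367768-75368138), with a score of 2690.39 at percentile 83.9. The other covered the start codon in the same exon, with a score of 531.67 at percentile 41.4. The other lists had nothing on *Smad7*, so WT-1 equalled both KO lists and the WT mice differed from each other. The exact permutation test on the number of *Smad7* peaks gave p = 1. The 5′-UTR peak had the highest percentile of the 10 regions found in a single list. WT-2 also supplied 6 of those 10 regions, on *Tgfbr1*, *Smad3*, *Smad7* (2 regions), *Smurf1* and *Skil*. Of the 5661 single-list regions of all genes, WT-2 supplied 1602, WT-1 1462, KO-1 1158 and KO-2 1439.

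Neither SMURF ligase had a region found in more than 1 mouse. *Smurf1* had 1 peak in WT-2 and 1 in KO-1, both in the 3′-UTR (chr5:144877335-144877843 and chr5:144878224-144878998), and they did not overlap. Their scores were 63.53 and 221.39, at percentiles 1.17 and 22.3. *Smurf2* had 1 peak in each KO list and none in either WT list. The KO-1 peak covered the stop codon (chr11:106822155-106822764, score 202.53, percentile 20.1), whereas the KO-2 peak lay at the 5′ end of the gene (chr11:106920307-106920662, score 354.63, percentile 28.8). *Smurf2* was thus called in both KO lists from peaks at opposite ends of the mRNA. With 0 and 0 peaks against 1 and 1, the exact permutation test gave p = 0.333, the smallest value the design allows.

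The corepressors *Ski* and *Skil* both had peaks in all 4 lists in 2 places, the first a large coding exon at the 5′ side and the second the last exon. In *Ski* exon 1 (region chr4:155221552-155222446) the peaks of all lists ended at the same exon edge and together covered 41% of the coding sequence. Their scores were 219.44 and 776.26 in WT (percentiles 24 and 53.5) and 617.88 and 1621.42 in KO (percentiles 50.8 and 67.8), and the genotypes overlapped in score. In width they did not, with 768 and 590 bp in WT against 895 and 771 bp in KO. In the last exon of *Ski* (region chr4:155155399-155157529) the scores were 3100.00 and 703.88 in WT (percentiles 99.7 and 50.2) and 181.21 and 402.82 in KO (percentiles 17.5 and 32.1). Both WT lists were above both KO lists, as in 9.51% of the regions found in all 4 lists. The WT-1 score lay at the plateau. With ties ranked from the bottom WT-1 fell to 89.8 and the order stayed, as in 28.4% of such regions. The KO peaks were wider, with 1490 and 2131 bp against 937 and 566 bp. Over all regions found in all 4 lists, 30.6% covered more bases in both KO lists. This last-exon region was chained by overlaps: the peaks of WT-1 and WT-2 did not share a base, and at most 3 lists covered the same base, so the peaks compared were not the same stretch.

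*Skil* held the strongest peaks of the 10 genes. Its exon 2 region (chr3:31096703-31098590) was 1888 bp wide and covered 53.7% of the coding sequence, and every list had a peak there with a score of 3100.00. In WT-2 it was split into 2 peaks, of which the one in the 5′-UTR was weak (score 238.05, percentile 19.6). The stop codon region of *Skil* (chr3:31118455-31119433) scored 3173.07 and 2084.07 in WT, and 3100.00 in each KO list. All 4 peaks began at the edge of exon 7, at -158 nt from the last base of the stop codon. In score, WT and KO overlapped in the stop codon region, and in exon 2 they tied at the plateau. In exon 2 the peaks covered 1868 bp in each KO list, nearly the same as the 1862 bp of WT-1. WT-2, with its split peak, covered 1493 bp. Of all regions found in all 4 lists, 30.6% covered more bases in both KO lists. The peaks of the stop codon region overlapped in width. A further peak at the end of the 3′-UTR was listed in WT-2 alone (percentile 19.2), which gave that list 4 *Skil* peaks against 2 in each other list.

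**Figure D2:**
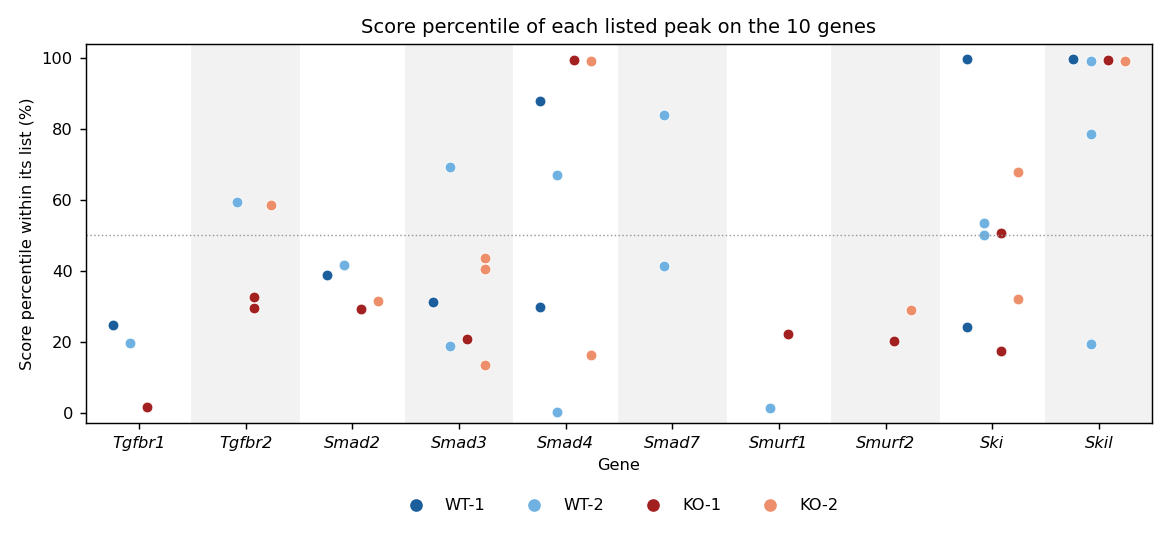
Percentile of the score of each listed peak within its own list (y axis, in %), by gene (x axis) and mouse list (colour), where the dotted line marks the middle of a list. *Skil* has peaks near 100 in every list and *Smad4* in both KO lists, whereas the peaks of *Tgfbr1*, *Smurf1* and *Smurf2* all lie below 30.

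Across the 10 genes the 49 peaks formed 22 regions. Of these, 6 were found in all 4 lists (27.3%, beside 18.5% of the 11653 regions of all genes). None was found in both WT lists alone (3.42% of all regions), and 1, in the *Smad3* 3′-UTR, was found in both KO lists alone (6.02% of all regions). A single list supplied 10 of the 22 (45.5%, beside 48.6% of all regions). The 6 recurrent regions lay on *Smad2*, *Smad4*, *Ski* and *Skil*. The bases covered on the 10 genes overlapped within a genotype about as they did between genotypes. The shared part of the bases covered by either list was 0.382 for WT-1 and WT-2 and 0.507 for KO-1 and KO-2, and between 0.305 and 0.556 for a WT with a KO list. WT-1 and WT-2 shared 63.1% of the WT-1 bases and 49.1% of the WT-2 bases, while WT-1 and KO-2 shared 87.7% of the WT-1 bases and 60.3% of the KO-2 bases. KO-1 and KO-2 shared 68.3% and 66.4%.

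**Figure D3:**
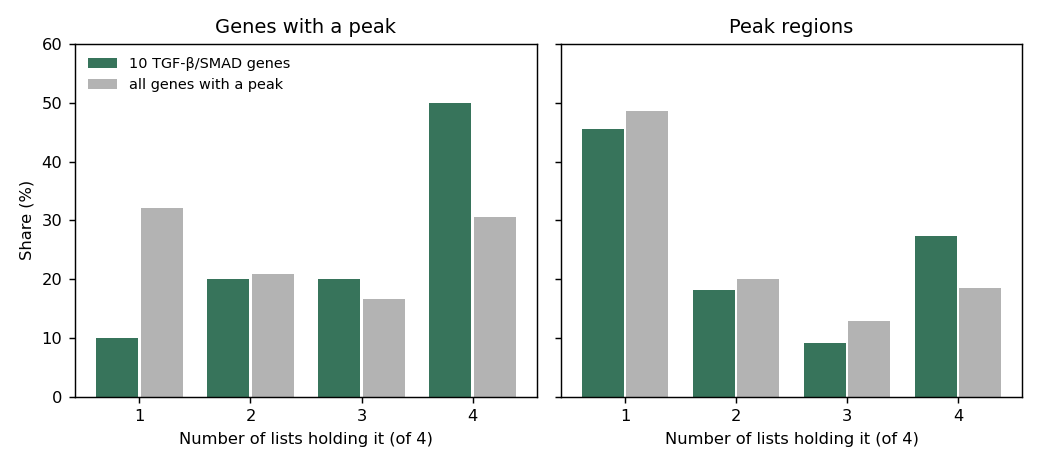
Share of genes with a peak (left) and of peak regions (right) that were found in 1, 2, 3 or 4 lists (x axis), for the 10 genes and for all genes with a peak (y axis, in %). On the left, 50% of the 10 genes and 30.5% of all genes were in all 4 lists, and on the right, 45.5% and 48.6% of the regions came from a single list.

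The last exon held the midpoint of 6 of 9 and 8 of 16 peaks of the 10 genes in WT, and of 8 of 12 and 7 of 12 in KO. These were 66.7% and 50% in WT and 66.7% and 58.3% in KO, beside 60.7% and 64.7% (WT) and 56.2% and 58.4% (KO) of all peaks. By their midpoints, 33.3% and 37.5% of the WT peaks and 33.3% and 36.4% of the KO peaks were in the coding sequence, below the 49.4% and 47.5% (WT) and 54.9% and 52.3% (KO) over all peaks. WT and KO overlapped in this share, which averaged 35.4% ± 2.97 (SD, n = 2) for WT against 34.85% ± 2.19 (SD, n = 2) for KO. Among the higher scores these genes had only 4 to 8 peaks per list. A share then moves widely with 1 peak, so no difference from all peaks or between genotypes is read from it. In the upper 50% of each list by score, the coding sequence held 50% and 50% of the WT peaks of these genes (4 and 8 peaks) and 75% and 80% of the KO peaks (4 and 5 peaks). Over all peaks with such scores the shares were 56.7%, 54.4%, 64.7% and 59%. Of the lower-scored peaks of these genes, 20%, 25%, 12.5% and 0% were in the coding sequence, against 41.8%, 40.3%, 44.4% and 45.3% of all lower-scored peaks. A stop codon was covered by 5 and 3 WT peaks (55.6% and 18.8%) and by 5 and 4 KO peaks (41.7% and 33.3%), against 32.3% to 36.6% of all peaks. An exon edge formed an end of 7 of 9 and 8 of 16 WT peaks (77.8% and 50%, beside 43.6% and 43.9% of all peaks) and of 9 of 12 and 8 of 12 KO peaks (75% and 66.7%, beside 48% and 52.4%), so many of the borders given above are those of exons.

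GGAC on the strand of the mRNA was present in 7 of 9 and 16 of 16 WT peaks and in 12 of 12 and 11 of 12 KO peaks of the 10 genes. Over all peaks of the lists the share was 87.4% to 88.8%. The peaks without it were on *Tgfbr1* (WT-1) and *Smad3* (WT-1 and KO-2), all close to the stop codon. Per kb of mRNA, the 10 genes held 3.84 GGAC inside and 3.52 outside their peaks, and 6 of the 10 had more inside. *Smurf2* had the highest density inside (9.04 per kb) and *Tgfbr1* the lowest (1.94 per kb), although both had weak peaks, and *Skil*, with the strongest, had 2.02 per kb.

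The wider TGF-β superfamily was described in the same way. Of 113 further genes in 10 role lists, 70 had a peak in at least 1 list (61.9%, beside 31.9% of all protein-coding genes) and 28 of these 70 had one in all 4 (40%, beside 30.5% of all genes with a peak). Only *Itgav* was listed in both WT and neither KO list (1.43%, beside 3.97%), and only *Cdkn2b* in both KO and neither WT list (1.43%, beside 4.89%). *Itgav*, an integrin subunit that activates latent TGF-β, had 1 peak in WT-1 and 1 in WT-2, which formed 2 separate regions. *Cdkn2b*, a cell cycle inhibitor that TGF-β induces, had 1 peak in KO-1 and 1 in KO-2, which overlapped. Genes with a peak numbered 48 and 46 in WT and 53 and 48 in KO of the 113, so the genotypes met at 48.

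Of 16 ligands, 4 had a peak and 1 had it in all 4 lists, *Inhba*, the activin A subunit. Of 11 genes of latency and activation 6 had a peak, with *Thbs1*, which releases TGF-β from its latent form, in all 4 lists. Of 6 extracellular antagonists 1 had a peak, in 3 lists. Among 10 other receptors 6 had a peak and 3 had it in all 4 lists, the activin and BMP receptors *Acvr1*, *Acvr2a* and *Bmpr2*. Of 10 coreceptors and receptor regulators 7 had a peak, with the decoy receptor *Bambi* and the adaptor *Dab2* in all 4. Of the 4 other SMADs 3 had a peak, and *Smad1*, the BMP-activated SMAD, had 3 and 2 peaks in WT and 2 in each KO list.

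Among 18 SMAD anchors and cofactors 14 had a peak and 8 had it in all 4 lists. The transcription factors *Runx1* and *Zeb2* had the most, with 18 and 17 peaks summed over the lists, followed by the coactivator *Ep300* (16) and the corepressor *Ncor1* (12). Of 14 ubiquitin ligases and phosphatases 11 had a peak, 6 of them in all 4 lists, among these *Rnf111*, the ligase that removes SKI and SKIL, *Trim33*, which acts on SMAD4, *Ppm1a*, a SMAD phosphatase, and *Ppp1r15a*, a phosphatase subunit. The noncanonical branch had a peak in 6 of 7 genes, 4 of them in all 4 lists, namely the kinase *Map3k7* (TAK1), its partner *Tab2*, the ligase *Traf6* and the kinase *Pak2*. Of 17 target genes 12 had a peak, with *Klf10* and *Bhlhe40*, both transcriptional repressors, in all 4 lists. Targets with a peak numbered 6 and 4 in WT and 9 and 8 in KO BMDMs, and genes of the noncanonical branch numbered 4 in each WT and 5 in each KO list. Neither pair of counts overlapped, at 2 lists a side and with no test over the list. With 2 lists against 2, a two-sided exact permutation test cannot go below p = 0.333. How often other gene sets of such sizes separate in this way was not tested, so no difference between genotypes is read from these counts. In the other 8 roles the genotypes met or overlapped. The higher noncanonical counts in KO came from *Rock1*, listed in KO-1 alone, and *Tab1*, listed in KO-2 alone. Among targets, only *Cdkn2b* was in both KO and neither WT list. Over all genes, 4164 and 4346 had a peak in the WT lists and 4176 and 4435 in the KO lists.

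**Figure D4:**
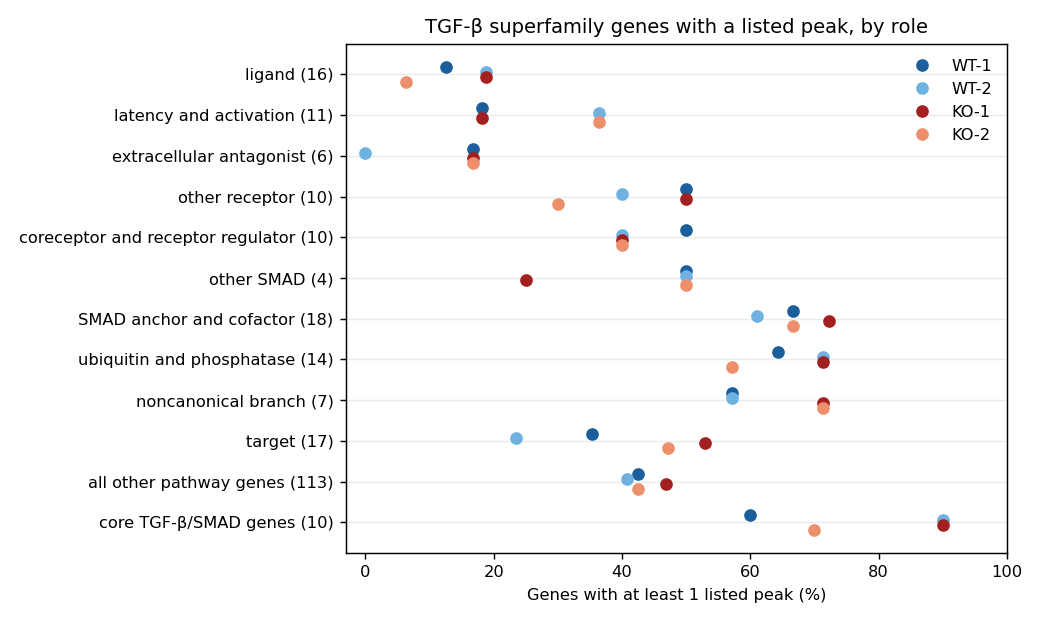
Share of the genes of each role with at least 1 listed peak (x axis, in %), 1 point per mouse list, with the number of genes in parentheses. Ligands and extracellular antagonists stay below 20% in every list. In the rows of the noncanonical branch and of targets both KO points lie to the right of both WT points, an order that was not tested. The noncanonical KO points rest in part on *Rock1* in KO-1 and *Tab1* in KO-2.

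The labelled cell type was checked by its markers, in peaks rather than RNA. Among the macrophage markers, *Mertk* had a peak in all 4 lists, *Fcgr1* in WT-1 and WT-2 and *Cd14* in WT-2, whereas *Csf1r*, *Adgre1*, *Itgam*, *Cd68*, *Lyz2* and *Spi1* had none. T, B and dendritic cell markers had peaks in at most 2 lists each, and granulocyte markers (0 of 8) had none. For T cells 2 of 5 had a peak (*Cd4* in both WT lists, *Lck* in WT-1). For B cells it was 1 of 5 (*Pax5* in WT-1 and KO-1), and for dendritic cells 1 of 5 (*Siglech* in KO-1). Fibroblast markers had one in 3 of 6: *Pdgfra* in every list but WT-2, *Pdgfrb* in every list but KO-2 and *Col1a1* in KO-1. *Pdgfra* and *Pdgfrb* were thus in more lists than *Fcgr1* and *Cd14*, so the marker peaks do not separate macrophages from fibroblasts. Fibroblast markers with a peak numbered 2 and 1 in WT and 3 and 1 in KO, and T cell markers 2 and 1 in WT and 0 in each KO list. *Fcgr1* and *Cd14* had peaks in WT lists alone. Of all genes with a peak, 3.97% were in both WT lists alone, as *Cd4* and *Fcgr1* were. A further 8.18% were in WT-1 alone (as *Lck*) and 10.4% in WT-2 alone (as *Cd14*). The part of these cell types in the peaks of the 10 genes was not tested, and an mRNA without a peak may still be present.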

How the data were processed

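Peak lists (BED) were used as deposited, 1 per mouse, with a score per peak. Per the labels, the authors trimmed reads with cutadapt 1.9.3 and aligned them with HISAT2 2.0.4 to mm10. Peak names begin with MACS, and the caller's settings are not given in the sources used here. Starts were taken as 0-based. Each peak was assigned to the protein-coding gene (GENCODE M21, mm10 coordinates) with the largest same-strand exon overlap of at least 1 bp, counting exons of protein-coding transcripts. Overlapping peaks of a gene were merged into regions. Position was that of the midpoint on the transcript with the longest coding sequence. GGAC was searched on the mRNA strand only. The 2 WT and 2 KO lists were compared by presence of peaks, and single genes by a two-sided exact permutation test (scipy 1.17.1). The steps were tested on simulated peaks. Members and lists were chosen with earlier results of these data known. Named were all members, other pathway genes called by genotype, at most 4 genes per role with most peaks among those in all 4 lists, and markers with a peak, of which 1 is not reported here. One listed T cell marker had no protein-coding entry in the annotation and was left out. Alternatives were a score threshold, equal list lengths, stricter exon overlap, other merging, other motifs, leaving out each list, pairing by number and, chosen after seeing the data, exons of all transcripts and ties ranked from the bottom.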

Additional observations from a re-analysis of the deposited data

How the results depend on the processing

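Each result was recomputed with 1 choice changed. With the upper 50% of peaks by score, members with a peak in all 4 lists numbered 3 (*Smad4*, *Ski* and *Skil*) in place of 5, their regions in all 4 lists 3 in place of 6, and members and regions in both KO and neither WT list 0 each in place of 1. Other pathway genes then numbered 17 in all 4 lists, 4 in WT only and 4 in KO only, in place of 28, 1 and 1, and the coding share of the members' peaks rose from 35.13% to 63.75%. With lists of equal length, 1 member (*Tgfbr1*) and 2 other pathway genes were in both WT and neither KO list. Counting every exonic base gave a coding share of 38.75%. GGACT was in 63.54% of the members' peaks and DRACH in 100%, against 92.36% for GGAC. No share over all peaks is given for GGACT or DRACH, so these values mark no trait of the members. With tied scores ranked from the bottom (chosen after seeing the data), the lower KO minus the higher WT percentile at the *Smad4* start codon went from 11.3 to -7.4, because both KO scores are tied at the plateau. With at least 50% of the peak in exons, other merging of peaks, or exons of all transcripts (chosen after seeing the data), every result these were run on stayed within 1.5 times its count or within 1 SD.

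Leaving out 1 list in turn gave 0 to 1 members in WT only (*Smad7* without WT-1, *Tgfbr1* without KO-1), 1 to 2 members in KO only (*Tgfbr2* without WT-2), 0 to 6 member regions in WT only (6 without WT-1) and 1 to 4 member regions in KO only (4 without KO-2). Other pathway genes then numbered 1 to 6 in WT only and 3 to 9 in KO only. The difference in peaks on the members, KO minus WT, went from -4 without WT-1 to 3 without WT-2, around -0.5. *Smurf2* stayed in KO only without any 1 list. With a list left out, 1 list stands for its genotype, so more calls arise by construction.

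With a replicate block, that is lists paired by number, 2 members were called in WT and 2 in KO, 7 and 6 member regions, and 13 and 20 other pathway genes, with members in all 4 lists at 5 and a mean difference of -0.5 ± 4.95 (SD of 2 pairs). This rule calls a difference seen in 1 pair, so it calls more by construction. Over 11653 regions, the difference between the WT lists and that between the KO lists correlated at 0.00391. Region presence alone cannot tell whether equal numbers mark a shared litter or batch. Without read counts, no limit from depth can be given.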
